A study of Mus musculus with 6 samples.

Results

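TRBV4 and TRBV29, known in the older mouse nomenclature as Vbeta10 and Vbeta7, are V segments of the T-cell receptor beta (TCRB) locus (mouse genes Trbv4 and Trbv29). Rearrangements using them were examined in T follicular regulatory (Tfr) cells from mouse spleen, and were chosen by their V gene call alone. They made up 199 of the 4238 distinct nucleotide rearrangements deposited, and 304 of 7043 templates, or 4.32%. Trbv4 accounted for 107 rearrangements with 161 templates, and Trbv29 for 92 rearrangements with 143 templates. The study sorted Tfr cells from the spleens of 3 Foxp3GFP mice, a genotype in which GFP reports Foxp3, and each mouse gave a sample titled superior and a sample titled inferior. The labels do not define these words, so they are used as group names, with 3 samples in each group. Both groups share the genotype and the tissue, no treatment or age is named, and the cell type is labelled as CD4 T cell. Genomic DNA was amplified with the survey version of the immunoSEQ mouse TCRB kit, so neither the Tfr nor the CD4 label could be checked against expressed markers.

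A TCRB chain is assembled in the thymus when a D segment is joined to a J segment and a V segment is then joined to that DJ. The V segment encodes the first and second complementarity-determining regions and the first residues of the third, CDR3, whose centre is formed by the D segment and by bases trimmed or added at the joints. The locus has a pair of D segments, each followed by its own cluster of J segments. TRBD1 can be joined to a J segment of either cluster, whereas TRBD2 lies beyond the TRBJ1 cluster and is ordinarily joined only to TRBJ2 segments. Regulatory T cells, the lineage of Tfr cells, carry diverse TCRs.

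In the RefSeq annotation of GRCm38.p6 (mm10), TRBV4 lies on chromosome 6 from 41059443 to 41059886, between TRBV3 and TRBV5 and 473 kb from TRBD1. TRBV29 lies on the same chromosome from 41271403 to 41271881, between TRBV26 and TRBV30 and 261 kb from TRBD1. The annotation gives TRBV4 as a V segment and TRBV29 as a V segment pseudogene, although in-frame TRBV29 rearrangements were deposited (counts below). The V segment ends are shown first because the start of CDR3 follows from them. Each line gives, 5′ to 3′, the commonest bases before CDR3 in lower case and the commonest 13 bases from the CDR3 cysteine codon in capitals.

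TRBV4: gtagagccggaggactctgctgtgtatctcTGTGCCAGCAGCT

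TRBV29: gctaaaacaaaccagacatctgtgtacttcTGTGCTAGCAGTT

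Both ends encode CASS in their first 12 bases, with different codons for alanine and for the second serine. Of 102 TRBV4 clonotypes, 83.3% kept the whole commonest sequence to base 12 and 49.0% to base 13. Of 70 TRBV29 clonotypes, 74.3% kept it to base 12, 60.0% to base 13 and 48.6% to base 14. At base 14 the TRBV4 share was 10.8%. The commonest TRBV4 base there, G, stood in 37 of 102 clonotypes, and only 11 carried all commonest bases up to it. For TRBV29 the base, T, stood in 34 of 70, all with the bases before it. Germline sequences were not at hand, so the drop at base 14 does not show that the TRBV4 end is shorter. A clonotype is defined here as all reads of 1 mouse that share the CDR3 nucleotides and both the V and J calls. Over the 3 mice there were 102 TRBV4 and 72 TRBV29 clonotypes among 3817. In 2 TRBV29 rearrangements, with 2 templates, the listed CDR3 began with another residue than cysteine, and CDR3 features were computed without them. The remaining 70 of 72 TRBV29 clonotypes had an in-frame CDR3 from the cysteine, although the segment is annotated as a pseudogene. Its expression was not examined, since genomic DNA was read.

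**Figure D1:**
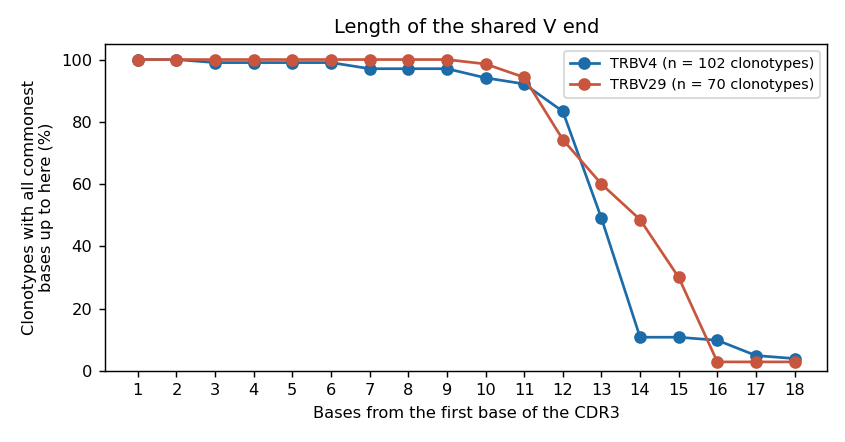
Share of TRBV4 (n = 102) and TRBV29 (n = 70) clonotypes, in percent, whose CDR3 carries every commonest base from its first base to the base on the x axis, counted from the cysteine codon. Both curves stay above 90% to base 11, and at base 14 TRBV4 is at 10.8% and TRBV29 at 48.6%. The commonest TRBV4 base at 14 stood in only 37 of 102 clonotypes, so the curves do not compare V end lengths there.

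The clonotypes with most templates are shown next because the clone sizes given further on refer to them. Reads are 87 bases long and end before the last CDR3 residue, and the CDR3 is in capitals.

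TRBV4 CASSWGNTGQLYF TRBJ2-2, mouse 1: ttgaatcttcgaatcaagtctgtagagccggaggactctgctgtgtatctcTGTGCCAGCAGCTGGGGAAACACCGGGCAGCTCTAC

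TRBV4 with TRBJ2-7, mouse 2: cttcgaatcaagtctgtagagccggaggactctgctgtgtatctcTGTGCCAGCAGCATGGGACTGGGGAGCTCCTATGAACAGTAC

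TRBV29 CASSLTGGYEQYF TRBJ2-7, mouse 1: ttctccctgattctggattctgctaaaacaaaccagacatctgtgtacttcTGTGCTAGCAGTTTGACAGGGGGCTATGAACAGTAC

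TRBV29 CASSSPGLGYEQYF TRBJ2-7, mouse 3: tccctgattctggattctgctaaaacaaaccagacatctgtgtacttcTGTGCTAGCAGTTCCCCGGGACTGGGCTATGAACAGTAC

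TRBV29 with TRBJ1-3, mouse 3: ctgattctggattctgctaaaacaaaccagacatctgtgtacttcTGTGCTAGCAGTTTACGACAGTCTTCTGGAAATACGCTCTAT

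Each segment took a small and similar share of the templates. TRBV4 made up 2.85%, 2.01% and 2.11% of templates in the superior samples of mice 1, 2 and 3, and 2.77%, 2.28% and 1.99% in the inferior samples. The groups overlapped, with means of 2.32% ± 0.458 and 2.35% ± 0.394 (SD, n = 3 each). By mean share over the 6 samples TRBV4 stood at rank 14 of 29 V segments, and its neighbours TRBV3 and TRBV5 averaged 10.3% ± 1.36 and 7.17% ± 0.937 (SD, n = 6). The TRBV4 share was below that of both neighbours in all 6 samples. In edgeR's quasi-likelihood test the log2 ratio of superior to inferior was -0.04 (SE 0.31, Benjamini-Hochberg adjusted p = 0.977).

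TRBV29 made up 4.20%, 1.83% and 1.85% of templates in the superior samples of mice 1, 2 and 3, and 1.61%, 1.09% and 2.26% in the inferior samples. The superior sample of mouse 1, the shallowest with 667 templates, stood above the rest, and the remaining superior samples lay within the inferior range. The 95% Wilson interval of that sample was 2.92% to 6.0%, from 28 templates. The group means were 2.62% ± 1.36 and 1.65% ± 0.590 (SD, n = 3 each), and TRBV29 stood at rank 15. The log2 ratio of superior to inferior was 0.50 (SE 0.37, adjusted p = 0.898 in edgeR's quasi-likelihood test). It was 0.03 without mouse 1 and 0.27 with each clonotype counted once. TRBV29 lay above TRBV30 (0.326% ± 0.115) and below TRBV26 (4.09% ± 0.933; SD, n = 6) in all 6 samples. Of the 23 V segments tested, edgeR called 0 (background 0%), 2 (8.7%) had an unadjusted p under 0.05, and DESeq2 called 0. Background, here and below, is the share called over everything tested in the same comparison, not a separate reference. Sample totals ran from 667 to 1855 templates, and intervals cover counting error only.

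**Figure D2:**
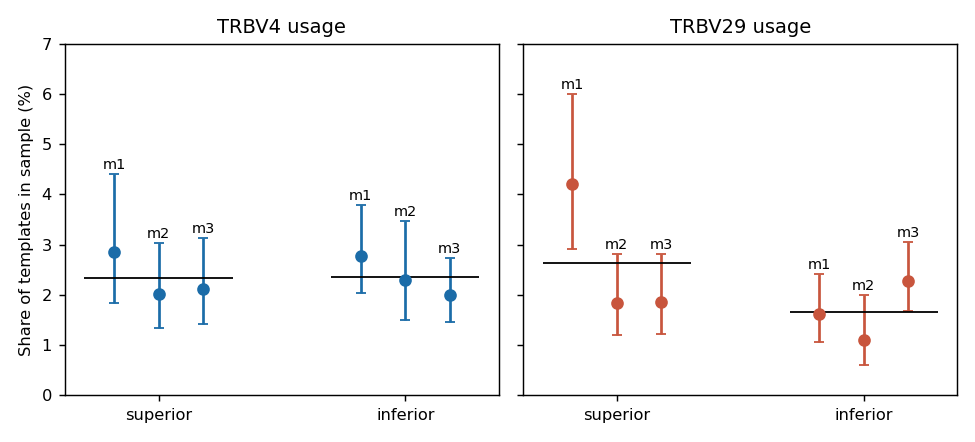
Share of templates in each sample, in percent, for TRBV4 and TRBV29, by group. Points are samples labelled by mouse (m1 to m3), bars are 95% Wilson intervals, and horizontal lines are group means. The superior sample of mouse 1 stands highest for TRBV29 at 4.20%, and the TRBV4 samples lie between 1.99% and 2.85%.

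D usage lay on opposite sides of the other V segments for TRBV4 and TRBV29. Among clonotypes joined to a TRBJ2 segment, which can follow either D, TRBD2 was called for TRBV4 in 24 of 30, 15 of 23 and 13 of 23 clonotypes (mice 1, 2 and 3). The shares, 80.0%, 65.2% and 56.5%, were above those of all other V segments in the same mice, 50.3%, 50.8% and 47.3%. The difference was 17.8 percentage points ± 10.7 (SD, n = 3), positive in 3 of 3 mice and 5 of 6 samples. The two-sided exact sign-flip permutation test gave p = 0.25, the smallest p that 3 mice allow.

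By sample the TRBV4 share was 85.7%, 71.4% and 37.5% in the superior and 70.6%, 66.7% and 66.7% in the inferior samples of mice 1, 2 and 3, the superior sample of mouse 3 being the exception. Without mouse 1 the difference was 11.8 points.

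TRBV29 had low shares. TRBD2 was called in 2 of 14, 2 of 10 and 8 of 21 TRBJ2 clonotypes of mice 1, 2 and 3, or 14.3%, 20% and 38.1%, against 52.1%, 51.7% and 47.7% in all other V segments. The difference of -26.4 percentage points ± 14.9 (SD, n = 3) was negative in 3 of 3 mice and 5 of 6 samples (exact sign-flip permutation p = 0.25). With clonotypes weighted by their templates the difference was -19.2 points and mouse 3 turned (56.1% against 46.1%; lower in 2 of 3 mice, exact permutation p = 0.5). By sample the TRBV29 share was 25.0%, 16.7% and 44.4% in the superior and 0%, 25.0% and 33.3% in the inferior samples, each from 4 to 12 clonotypes. Weighted by templates, the TRBV4 shares were 58.8%, 70.6% and 56.4% in mice 1, 2 and 3, so in mouse 3 TRBV4 and TRBV29 were nearly level. In the superior sample of mouse 3, TRBV29 lay above TRBV4 (44.4% against 37.5% of clonotypes). With each clonotype counted once and the samples of a mouse merged, the mouse shares of TRBV4 and TRBV29 did not overlap. With the mice summed, TRBV4 had the highest share, 68.4%, and TRBV29 the lowest, 26.7%, of the 18 V segments with at least 50 clonotypes, whose median was 51.1%.

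Not every D call was resolved. It was unresolved in 31.1% of TRBV29, 11.8% of TRBV4 and 18.1% of all other TRBJ2 clonotypes. With unresolved calls left out, an alternative chosen after seeing the data, the differences were 15.9 points for TRBV4 and -24.3 points for TRBV29, each with the same direction in 3 of 3 mice. TRBV4 then stood at rank 2 with 77.6%, after TRBV31 with 78.4%, and TRBV29 at rank 17 with 38.7%, above its upstream neighbour TRBV26 with 35.8%. TRBD2 was also called in 2 of 26 TRBV4, 3 of 27 TRBV29 and 72 of 1197 other clonotypes joined to TRBJ1, where the order of the locus leaves no room for it by deletion. These shares, 7.69%, 11.1% and 6.02%, show how often a D call can go against the position of the segments. Among CDR3s of 14 residues or more, an alternative also chosen after seeing the data, the differences were 16.3 points for TRBV4 and -25.9 points for TRBV29. Beyond these alternatives, how far D calling bears on the differences was not tested.

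**Figure D3:**
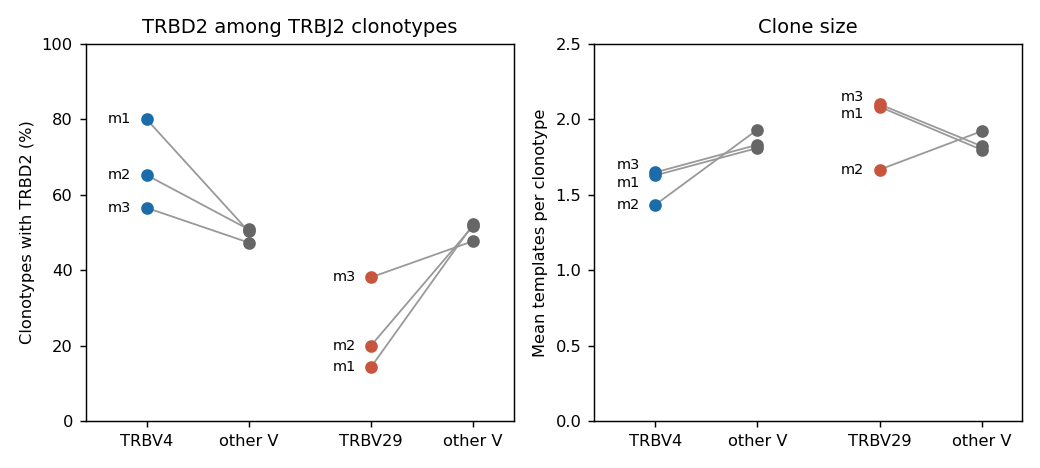
Left, share of TRBJ2 clonotypes with TRBD2, in percent; right, mean templates per clonotype; each for TRBV4 and TRBV29 beside all other V segments of the same mouse. Points are mice (m1 to m3) and lines join values of 1 mouse. TRBV4 lies above the other V segments on the left in all 3 mice and below them on the right, and TRBV29 lies below them on the left.

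J pairing was broad for both segments, with all 12 commonly used J segments present in each. TRBV4 used TRBJ2-4, TRBJ2-5 and TRBJ2-7 most, with 14 of 102 clonotypes, 13.7%, each. TRBJ2-7 took 8.57%, 23.3% and 10.8% of TRBV4 clonotypes in mice 1, 2 and 3, against 20.2%, 22.7% and 18.3% in all other V segments. TRBV4 was therefore lower in 2 of 3 mice (log2 ratio -0.56, SE 0.57, adjusted p = 0.596 in edgeR's quasi-likelihood test; -0.31 without mouse 1 and -0.98 without mouse 2). TRBJ2-4 was led by mouse 1, with 22.9% against 6.67% and 10.8% in the others. TRBJ2-5 had the same lead in mouse 1, 22.9% against 10% and 8.11%.

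None of the J segments of TRBV4 passed the adjusted threshold. Of 12 tested, edgeR called 0 (background 0%), DESeq2 called 0, and 1 (8.33%) had an unadjusted p under 0.05. That segment, TRBJ1-6, was named after its values were seen. It took 5.71%, 10% and 8.11% of TRBV4 clonotypes against 2.74%, 3.92% and 2.13% of the others (log2 1.45, SE 0.58, adjusted p = 0.241 in edgeR). The TRBV4 share was higher in 3 of 3 mice, from 8 clonotypes with 9 templates in all. TRBJ2-3 and TRBJ2-2, also named after their values were seen, were higher in 3 of 3 mice too. TRBJ2-3 took 11.4%, 16.7% and 8.11% of TRBV4 clonotypes against 7.69%, 6.96% and 6.89% (log2 0.71, adjusted p = 0.478 in edgeR). TRBJ2-2 took 11.4%, 13.3% and 8.11% against 5.76%, 6.76% and 7.64% (log2 0.68, adjusted p = 0.478 in edgeR). In the other direction, TRBJ1-1, TRBJ1-2 and TRBJ1-4 were lower in 3 of 3 mice. Their log2 ratios were -0.88, -0.39 and -1.71 (adjusted p = 0.478, 0.779 and 0.343 in edgeR), with only 5, 4 and 2 of 102 clonotypes. For TRBV4 the median log2 ratio over the 12 J segments shifted by -0.19 with DESeq2 and -0.21 with TMM. The TRBJ1 cluster as a whole took 14.3%, 23.3% and 37.8% of TRBV4 clonotypes against 32.3%, 32.8% and 33.6%. The mice thus differed in direction, mouse 3 lying above the other V segments and mice 1 and 2 below (difference -7.75 points ± 11.2, SD, n = 3; exact sign-flip permutation p = 0.5).

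TRBV29 used TRBJ2-7 most, with 14 of 72 clonotypes, then TRBJ2-3 with 11. TRBJ2-7 took 25.0%, 16.7% and 16.7% of its clonotypes in mice 1, 2 and 3, against 19.7%, 22.9% and 18.1% in all other V segments (log2 -0.03, SE 0.24, adjusted p = 0.936 in edgeR). It carried 44 of the 143 TRBV29 templates. TRBJ2-3 took 12.5%, 16.7% and 16.7% against 7.70%, 7.07% and 6.73%, higher in 3 of 3 mice (log2 1.10, SE 0.48, unadjusted p = 0.0469, adjusted p = 0.379 in edgeR's quasi-likelihood test). TRBV4 was also higher for TRBJ2-3 in 3 of 3 mice, as given above. TRBJ1-2 and TRBJ1-3 followed with 8 clonotypes each. TRBJ1-2 was above the other V segments in 3 of 3 mice (log2 1.14, SE 0.57, adjusted p = 0.379 in edgeR). TRBJ1-3 was higher in 2 of 3 mice and carried 24 templates. Scaling moved these values: the median log2 ratio over the 12 J segments of TRBV29 shifted by -0.76 with DESeq2 and by -0.39 with TMM. TRBJ2-3 was then 0.45 and 0.70 (unadjusted p = 0.505 and 0.291), TRBJ1-2 was 0.47 and 0.77, TRBJ1-3 was 0.29 and 0.60, and TRBJ2-7 was -0.69 and -0.46. Lower than the other V segments in 3 of 3 mice were TRBJ1-1, TRBJ1-5, TRBJ2-1 and TRBJ2-5. Their log2 ratios were -1.12, -1.37, -1.23 and -0.47 (adjusted p = 0.392, 0.548, 0.379 and 0.548 in edgeR). They rest on only 3, 1, 3 and 7 of 72 clonotypes, in that order. Of 12 J segments tested, edgeR called 0 (background 0%), DESeq2 called 0, and 1 (8.33%) had an unadjusted p under 0.05.

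**Figure D4:**
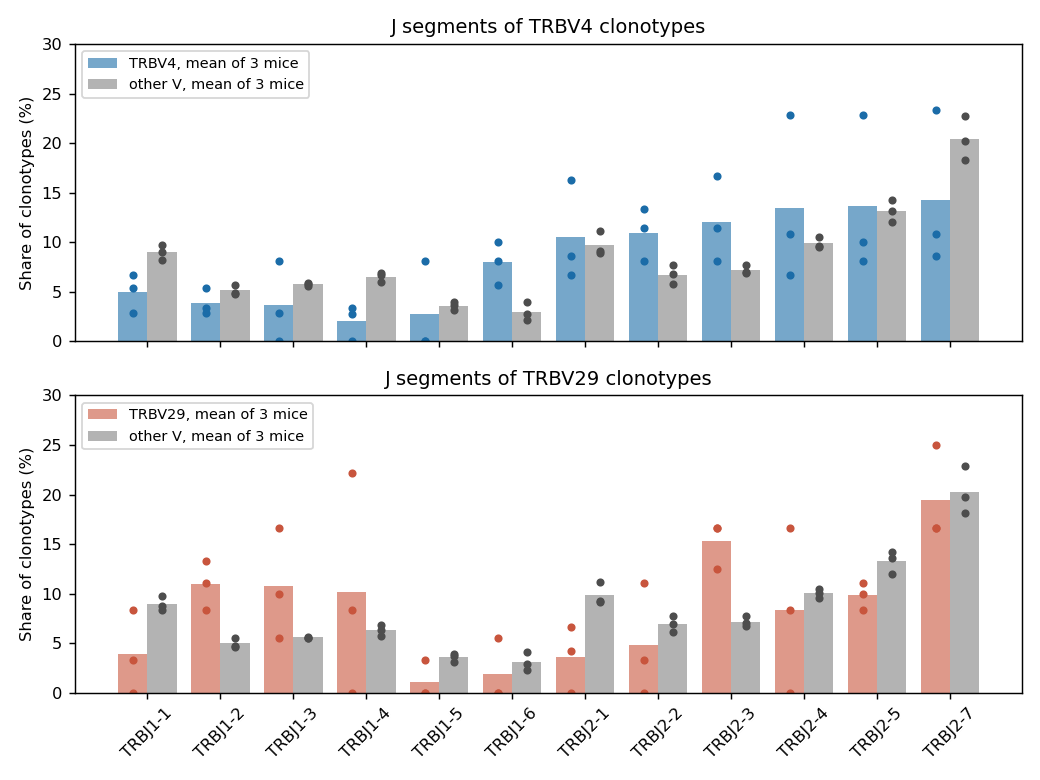
Share of clonotypes with each J segment, in percent, for TRBV4 (top) and TRBV29 (bottom), coloured, beside all other V segments, grey. Bars are means of 3 mice and points are mice. The 3 mice of TRBV29 lie above the grey points for TRBJ2-3 and TRBJ1-2, and those of TRBV4 lie above them for TRBJ1-6, TRBJ2-2 and TRBJ2-3.

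Likeness of J usage was measured by the Jensen-Shannon distance between J shares of clonotypes summed over the mice, which is 0 for equal shares. It was taken to the 14 other segments that were compared, those with at least 100 clonotypes and the other of this pair. TRBV4 was nearest to TRBV13-3 (0.168) and TRBV19 (0.186). TRBV29 was nearest to TRBV26 (0.18), its upstream neighbour, and to TRBV2 (0.210). The distance between TRBV4 and TRBV29, 0.306, was the largest that either had to any segment compared. A distance rises when clonotypes are few, and TRBV29 had only 72, so the values are a description.

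CDR3 lengths of the segments had different shapes. TRBV4 averaged 13.5, 13.8 and 13.9 residues in mice 1, 2 and 3, against 13.8 in all other V segments of each mouse. The difference of -0.102 residues ± 0.198 (SD, n = 3) did not have 1 direction (lower in 2 of 3 mice; exact sign-flip permutation p = 0.75). With the other V segments reweighted to the J usage of TRBV4 it was -0.233, lower in 3 of 3 mice (exact permutation p = 0.25), and weighted by templates it was -0.046, lower in 1 of 3. Its lengths were spread nearly evenly, with 22, 21, 24 and 20 of 102 clonotypes at 12, 13, 14 and 15 residues. CDR3s of 12 residues or fewer made up 24.5% of TRBV4 clonotypes, the second highest share of 18 V segments after TRBV20 with 29.4%. By mouse this share was 31.4%, 26.7% and 16.2% against 14.5%, 17.0% and 16.8% in the other V segments, so mouse 3 did not share the direction.

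TRBV29 lengths were bunched at 13 and 14 residues. Of 70 clonotypes, 23 had 13 residues and 28 had 14, together more than in the V segments other than TRBV4 and TRBV29, where 22.9% and 30.1% had these lengths. Only 2 of 70, 2.86%, had 16 residues or more, against 10.3% in all V segments other than TRBV29, and both were in mouse 2. The mean was 13.0, 13.8 and 13.5 residues in mice 1, 2 and 3, against 13.8 in the others of each mouse. The difference of -0.358 residues ± 0.372 (SD, n = 3) was negative in 3 of 3 mice and 5 of 6 samples (exact sign-flip permutation p = 0.25). The inferior sample of mouse 2, with 14.2, was the exception, and the difference was -0.156 residues without mouse 1 and -0.20 weighted by templates.

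The sample groups were not separated by CDR3 length. TRBV4 averaged 13.6 ± 0.315 residues in the superior and 13.8 ± 0.394 in the inferior samples (SD, n = 3 each; two-sided exact permutation p = 0.6). TRBV29 averaged 13.4 ± 0.253 and 13.6 ± 0.546 (SD, n = 3 each; exact permutation p = 0.9). Weighted by templates the superior minus inferior differences were -0.307 and -0.419 residues (exact permutation p = 0.4 and 0.5). With 3 against 3 samples the smallest possible p is 0.1.

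**Figure D5:**
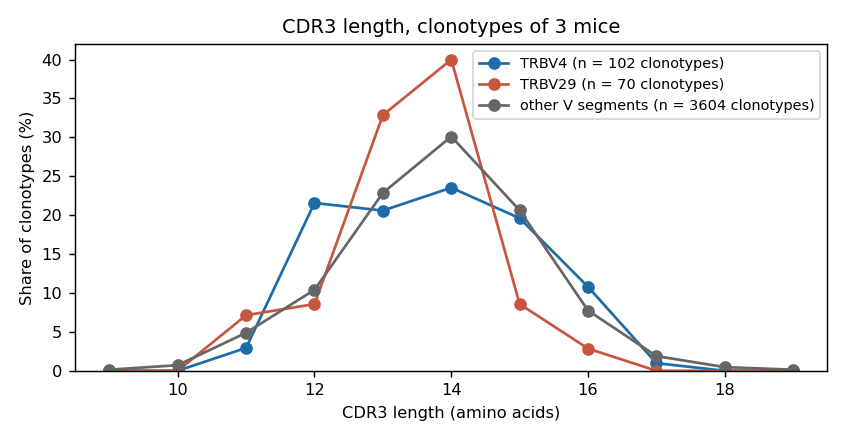
Share of clonotypes, in percent, at each CDR3 length in amino acids, for TRBV4 (n = 102), TRBV29 (n = 70) and all V segments other than these (n = 3604), mice summed. TRBV29 is highest at 14 residues with 40%, and TRBV4 is nearly level from 12 to 15 residues.

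The residue after CASS differed between the segments. At position 5, counted from the cysteine, TRBV29 had leucine in 27 of 70 clonotypes, 41.7%, 37.5% and 36.7% in mice 1, 2 and 3, against 22.5%, 19% and 20.1% in the others. TRBV4 had leucine in 9.80% against 21.1% in the others. It had arginine and serine in 16.7% each, against 8.27% and 3.46%. Tryptophan stood there in 12 of 102 TRBV4 clonotypes, 14.3%, 10% and 10.8% by mouse, against 0.923%, 1.09% and 1.20%. These shares are given as values, since position 5 is partly set by the germline V end.

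In the CDR3 core, positions 6 to 5 before the end, edgeR called 0 of 19 amino acids for TRBV4 (background 0%), with 3 (15.8%) at an unadjusted p under 0.05, and DESeq2 called 0. Tryptophan, 1 of these 3, took 6.56%, 6.19% and 4.17% of core residues in TRBV4 against 3.25%, 3.05% and 2.79%. It was higher in 3 of 3 mice (log2 0.88, SE 0.14, unadjusted p = 0.0128, adjusted p = 0.243 in edgeR's quasi-likelihood test). Proline and glutamate were lower in 3 of 3 mice, with log2 ratios of -2.09 and -1.24 (adjusted p = 0.289 for each in edgeR). With position 5 included, edgeR called 3 of 19 amino acids for TRBV4, and 8 had an unadjusted p under 0.05. Position 5 is partly set by the germline V end, so these calls compare V ends as well as joints. Tryptophan (log2 1.39, adjusted p = 0.00663) and tyrosine (log2 1.33, adjusted p = 0.0386) were higher and glutamate was lower (log2 -1.73, adjusted p = 0.0386).

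For TRBV29, edgeR called 0 of 19 core amino acids (background 0%), 0 had an unadjusted p under 0.05, and DESeq2 called 1, methionine (log2 3.4, adjusted p = 0.0443). This call rests on 3 methionines among 240 TRBV29 core residues. Methionine was absent from the TRBV29 cores of mouse 2 and took 2.74% and 0.943% in mice 1 and 3. The edgeR log2 ratio was 3.24 (SE 1.88, adjusted p = 0.438). With position 5 included, edgeR called phenylalanine higher (log2 1.66) and aspartate lower (log2 -1.10; adjusted p = 0.0485 for each).

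TRBV4 clonotypes held 1.63, 1.43 and 1.65 templates on average in mice 1, 2 and 3, against 1.81, 1.93 and 1.83 in all other V segments. The difference of -0.287 templates ± 0.183 (SD, n = 3) was negative in 3 of 3 mice and 6 of 6 samples (exact sign-flip permutation p = 0.25). It was -0.182 without mouse 2. When the other V segments were reweighted to the J usage of TRBV4 it was -0.130, and with listed rearrangements in place of clonotypes it was -0.164. Under either alternative TRBV4 was lower in 2 of 3 mice, not in mouse 1 (exact sign-flip permutation p = 0.5 for each). Clonotypes with a single template made up 68.6% of TRBV4 clonotypes, the second highest share of 18 V segments, against 56.7% in the others. By mouse, 77.1%, 70.0% and 59.5% had a single template, against 59.2%, 56.0% and 55.4%, and the TRBV4 share was higher in 6 of 6 samples. Only 2 of 102 held 5 templates or more.

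Those 2 were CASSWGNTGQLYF with TRBJ2-2 and the TRBJ2-7 clonotype of mouse 2, both printed above. In mouse 1, the first had 3 of 667 superior templates, 0.450%, and 12 of 1370 inferior templates, 0.876%. The second had 3 and 2 templates in mouse 2. Next came a pair of TRBJ2-1 clonotypes in mouse 3 with 4 templates each. One, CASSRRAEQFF, was seen in superior DNA alone, and the other, 4 residues longer, in inferior DNA alone. For the longer one, 0 of 1136 superior templates allows a share of up to 0.264%, above the 0.216% of the inferior sample.

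TRBV29 clonotypes held 2.08, 1.67 and 2.10 templates on average, against 1.80, 1.92 and 1.82 in the others. Mouse 2 was lower and mice 1 and 3 were higher (difference 0.103 ± 0.310, SD, n = 3; exact sign-flip permutation p = 0.5). It was 0.0115 without mouse 1, 0.0151 without mouse 3 and 0.0369 with the other V segments reweighted to the J usage of TRBV29. A single template was found for 36 of 72 TRBV29 clonotypes, and 4 of 72 had 5 templates or more. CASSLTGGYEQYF with TRBJ2-7 in mouse 1 had 9 of 667 superior templates, 1.35%, and 0 of 1370 inferior templates, a count that allows a share of up to 0.219%. It supplied 9 of the 28 TRBV29 templates of its sample. In mouse 3, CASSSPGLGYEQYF with TRBJ2-7 had 7 superior and 0 inferior templates. The TRBJ1-3 clonotype printed above had 0 and 6 in the same mouse. In mouse 2, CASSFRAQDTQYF with TRBJ2-5 had 5 and 0. Their counts of 0 allow shares of up to 0.162%, 0.264% and 0.326%, in that order, against 0.616%, 0.323% and 0.457% where they were seen. Each of the 4 largest TRBV29 clonotypes was thus found in 1 sample of its mouse only. The same share was not computed for large clonotypes of other V segments, so it is not a trait of TRBV29. Over all sizes, 156 of 3745 clonotypes of other V segments were in both samples.

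Few clonotypes of either segment were found in both samples of a mouse. TRBV4 had 1 of 35, 3 of 30 and 1 of 37 clonotypes in both samples of mice 1, 2 and 3, against 36 of 1094, 51 of 1021 and 65 of 1600 in the others. TRBV29 had 1 of 24, 0 of 18 and 0 of 30. The 1 shared TRBV29 clonotype, joined to TRBJ1-4, had 1 template in each sample of mouse 1. The differences from the other V segments were 1.07 points ± 3.44 for TRBV4 and -2.81 points ± 3.27 for TRBV29 (SD, n = 3; exact sign-flip permutation p = 1 and 0.5).

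Weighted by templates, the shared clonotypes counted for more. They held 26.3%, 20.9% and 4.92% of TRBV4 templates in mice 1, 2 and 3, against 9.29%, 16.4% and 8.46% in the other V segments, higher in 2 of 3 mice (difference 5.99 points; exact sign-flip permutation p = 0.5). In mouse 1 this was a single clonotype, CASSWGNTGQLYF, with 15 of the 57 TRBV4 templates, and in mouse 2 it was 3 clonotypes. Shared clonotypes held 4%, 0% and 0% of TRBV29 templates against 9.91%, 16.8% and 8.57%. This TRBV29 difference, -10.4 points, was negative in 3 of 3 mice (exact sign-flip permutation p = 0.25, the smallest possible). It rests on 1 shared clonotype with 2 templates. Without the weighting, mouse 1 lay above the other V segments (4.17% against 3.26%).

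Sharing between mice was rarer. Matched by CDR3 amino acids and by the V and J calls, 1 of 100 TRBV4 clonotypes was found in 2 mice, 0 of 72 TRBV29 clonotypes were, and over all V segments 30 of 3751 were, or 0.800%. The TRBV4 clonotype was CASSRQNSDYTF with TRBJ1-2, with 1 template in mouse 1 and 2 templates in mouse 3, all in inferior samples. The reads are shown because the mice held different nucleotide forms, with the CDR3 in capitals.

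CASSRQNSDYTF, mouse 1: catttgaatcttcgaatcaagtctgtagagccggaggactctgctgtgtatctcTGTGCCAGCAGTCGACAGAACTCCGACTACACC

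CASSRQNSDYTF, mouse 3: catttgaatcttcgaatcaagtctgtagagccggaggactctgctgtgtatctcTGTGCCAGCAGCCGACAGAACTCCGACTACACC

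They differed at 1 of 33 CDR3 bases, T12C, with positions counted from 1 at the cysteine codon, the form of mouse 1 given first. The same CDR3 amino acids also occurred with another V segment for 7 of 100 TRBV4 CDR3s, among them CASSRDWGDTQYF, and for 6 of 70 TRBV29 CDR3s, among them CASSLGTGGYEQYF. These examples were chosen after their values were seen.

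Repeats of a CDR3 in several listed reads were more frequent for TRBV29 than for most V segments, which is given as a description without a test. Its 70 clonotypes with a CDR3 were listed as 90 distinct rearrangements, and 18 of 70, 25.7%, had more than 1 form, against 9.63% in the other V segments. TRBV4 had repeats in 5 of 102, or 4.90%. By rearrangements per clonotype, TRBV29 stood at rank 3 of 18 with 1.29, below TRBV24 and TRBV13-2 with 1.36 each. One difference accounted for 14 of the TRBV29 forms, and it lay before the CDR3, in a run of 4 A. The example is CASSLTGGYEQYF of mouse 1, with the A run in capitals.

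Form with 4 A, 8 templates: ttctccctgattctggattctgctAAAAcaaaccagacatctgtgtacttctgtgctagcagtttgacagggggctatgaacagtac

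Form with 3 A, 1 template: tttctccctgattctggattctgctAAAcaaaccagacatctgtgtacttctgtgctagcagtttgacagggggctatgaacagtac

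Of 91 listed TRBV29 reads, counted per sample, 77 with 127 templates had 4 A and 14 with 14 templates had 3 A. Each form with 3 A had 1 template. They were found in all 6 samples, with 3, 3 and 1 in the superior and 3, 1 and 3 in the inferior samples of mice 1, 2 and 3. In 14 of 14 cases the form with 4 A and the same CDR3 was present in the same sample. The source of the forms with 3 A was not tested. With each listed rearrangement as its own clone, mean templates per clone of TRBV29 lay below the other V segments by -0.131, in place of 0.103 above them.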

How the data were processed

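TCRB rearrangements from genomic DNA were read in 6 samples (3 mice, superior and inferior). The deposited counts per nucleotide rearrangement are whole numbers that the authors gave with a fraction of the sample total. The files do not say whether they count templates or reads, and they are called templates here. The genome build, per the submitters' processing notes, was mm10; for the aligner and the clonotype caller, the tool is not given in the sources used here. Positions come from RefSeq's table for GRCm38.p6.

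TRBV4 and TRBV29 were taken by V gene call. Rearrangements with equal V segment, CDR3 nucleotides and J segment were merged within a mouse. V usage (templates), J usage and core residues (each clonotype once) were tested with edgeR 4.0.16 (quasi-likelihood, total as library size, common dispersion, features with at least 10 counts, Benjamini-Hochberg adjustment over the table, threshold 0.05), with DESeq2 1.42.0 as an alternative, in R 4.3.3. V usage compared 3 superior with 3 inferior samples without a block; the other fits had the mouse as block. Single values were compared over mice by exact sign-flip permutation, two-sided, in Python 3.11.15 with scipy 1.17.1. Scripts were tested on simulated data. P-values of the sign-flip tests cover the spread between these 3 mice. The tests of superior against inferior took the 6 samples as independent, although each mouse gave a pair. Each edgeR fit used 1 dispersion for all its features, and residues of the same CDR3 were counted as separate. Shares have 95% Wilson intervals, and the limit for a count of 0 is 3 counts; PCR duplicates are not covered.

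The samples of a mouse come from 1 animal. Deviations of V shares from the group means correlated at 0.067, 0.665 and -0.348 in mice 1, 2 and 3, over 29 V segments. Named clonotypes are the 3 largest per mouse, those in both samples of a mouse (up to 5) and those in several mice. Named J segments are the 3 most used and, after their values were seen, those higher or lower than the other V segments in 3 of 3 mice. The members and lists were chosen with earlier results of these data known. Alternatives were the mouse as block, DESeq2, TMM scaling, no filter on low counts, counting each clonotype or listed rearrangement once, other CDR3 positions, weighting by templates, J reweighting and leaving out each mouse. For the TRBD2 share, leaving out unresolved D calls and keeping only CDR3s of 14 residues or more were added after seeing the data.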

Additional observations from a re-analysis of the deposited data

How the results depend on the processing

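Of 124 values recomputed for the comparisons, 115 were unchanged. For a difference, unchanged means the same direction and side of the threshold. For a count of J segments or amino acids called, it means a number within 1.5 times. In the exact tests the side of the threshold was fixed in advance, and changing only the replicate block fixed the direction too. Much of this agreement is therefore no support for the results. With the mouse as replicate block, the log2 ratios of superior to inferior usage were -0.01 for TRBV4 and 0.56 for TRBV29, and no call changed. Without each mouse in turn (without replicate 1, 2 or 3), usage of TRBV4 ranged from -0.13 to 0.039 and that of TRBV29 from 0.03 to 1.0. The TRBV4 length difference from other V segments ranged from -0.194 to 0.0026, its share in both samples from -0.897 to 2.29 points, and its superior minus inferior length from -0.356 to 0.141. The TRBV29 superior minus inferior length ranged from -0.248 to 0.0769. Listed rearrangements in place of clonotypes turned the TRBV29 size difference to -0.131. Counts of core amino acids called moved from 0 to 3 for TRBV4 and 2 for TRBV29 with position 5 included, and to 1 for TRBV29 by DESeq2; the cause was not tested. For single J segments without each mouse in turn, the log2 ratio of TRBJ2-4 in TRBV4 ranged from -0.17 to 0.72, that of TRBJ2-5 in TRBV4 from -0.56 to 0.41, and that of TRBJ2-7 in TRBV29 from -0.26 to 0.11. TRBJ2-5 in TRBV4 was also -0.10 by DESeq2 and -0.16 with TMM. Without each mouse in turn, TRBJ2-7 in TRBV4 ranged from -0.98 to -0.31. Several values kept their direction and side of the threshold while changing size by over 1.5 times or losing a direction shared by the 3 mice, and these are given beside the results: template weighting (TRBD2 share of TRBV29, clonotypes in both samples, CDR3 length), J reweighting (TRBV4 length and clone size of both segments), listed rearrangements (clone size), and DESeq2 or TMM scaling (J segments of TRBV29). No difference of any size can reach 0.05 in the exact tests over 3 mice, whose smallest p is 0.25, or over 3 against 3 samples, whose smallest p is 0.1.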
